A study of Gallus gallus with 10 samples.

Results

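Interferon-stimulated and antiviral sensing genes were followed in chick choroid after exposure to a nitric oxide donor. The group was a list of 34 gene names, covering interferon receptors, sensors of viral RNA, interferon regulatory factors and antiviral effectors. Each name was matched exactly to the common names in the deposited table of 24355 genes, and 30 were found, each in a row of its own. USP18, PARP14, SAMD9L and CD274 had no matching name and were not analysed here. Of the 30, 28 reached 1 FPKM (fragments per transcript length and library size) in at least 5 libraries and were tested. TLR3 and TLR7 did not reach it, and MX1 reached it in 5 treated libraries but in only 1 control.

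RNA was sequenced from whole tissue homogenate of the choroid, the vascular and pigmented layer between retina and sclera, of normal chicks (strain Domesticus) at post hatch day 15. PAPA-NONOate, a compound that breaks down in solution and gives off nitric oxide, was present at 1.5 mM in 5 choroids, and 5 controls are described as minus PAPA-NONOate. Both groups carry 1 and the same description of the incubation, which lasted 24 hours in 5% CO2 at 37 °C. All treated samples carry the letter R and all controls the letter L, so that what the letters mark cannot be told apart from the treatment. Whether the replicates are separate animals is not given, so that p-values here reflect the spread among the samples, which may be technical. The comparison asks which transcripts differ in choroid exposed to nitric oxide.

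Type I interferons bind a receptor made of IFNAR1 and IFNAR2, and interferon gamma binds one made of IFNGR1 and IFNGR2. The receptors activate STAT factors, which raise a shared set of interferon-stimulated genes, many of them encoding proteins that block viral replication. Interferon is itself induced when toll-like receptors or cytosolic helicases detect foreign RNA. Chickens lack the helicase RIG-I and the factor IRF3, so that IFIH1 (MDA5) and IRF7 are the main known route from viral RNA to interferon in this species.

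No read counts were used, and the depth in reads is unknown. Judged from the spacing of low FPKM values, the deepest library had 1.52 times the depth of the shallowest. The summed FPKM ran from 394921 (PAPA-NONOate replicate 2) to 605493 (control replicate 8), and replicate 2 of the treated group lay farthest out on the first principal component. Transcripts of photoreceptors and of the retinal pigment epithelium were nearly absent. The marker lists were chosen with earlier results of these data known, so their p-values describe the lists. The 6 photoreceptor markers found summed to 0.146 to 1.05 FPKM with PAPA-NONOate and 0.279 to 0.846 FPKM in controls, with 2 at 0 in every library, and the 6 pigment epithelium markers to 0.817 to 1.84 FPKM with PAPA-NONOate and 1.73 to 4.47 FPKM in controls (exact permutation p = 0.0159, and 0.0437 adjusted over 11 marker lists). The endothelial marker PECAM1 stood at 93.5 ± 25.4 FPKM with PAPA-NONOate and 89.1 ± 14.0 FPKM in controls (SD, n = 5 each).

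Genes encoding antiviral effectors were higher in choroids with PAPA-NONOate, while the genes of the interferon receptors were not called either way. IFIT5, IFI6, MX1, RSAD2 and CMPK2 rose by log2 fold changes of 1.60 to 2.06, and OASL, IRF1, ZNFX1, DTX3L and EIF2AK2 by 0.62 to 0.96. In all, 10 of the 28 tested members rose (35.7%), 0 fell and 18 did not pass. At an unadjusted p under 0.05, 16 members were higher and 1 lower (IFNGR1) in limma, and 15 higher and 1 lower by an exact permutation test. That threshold was passed by 3194 of all 11357 tested genes in limma and by 2982 in the permutation test, both directions together. Over all 11357 genes tested 9.34% were called, 1.93% higher and 7.41% lower, at a Benjamini-Hochberg adjusted p under 0.05 in limma. The groups did not overlap for 10 members (TRIM25 and the called genes other than OASL), all with PAPA-NONOate higher, where 1.84% of all genes stood apart in that direction and 7.48% in the other. The median log2 fold change of the tested members was 0.39, and that of all tested genes was -0.18. The members were chosen with earlier results of these data known, so these counts are a description of the list. Dividing each library by its median ratio to the other libraries removes the shift of the median gene, and then 17 members were called higher and 0 lower, against 7.03% and 6.44% of all genes.

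**Figure D1:**
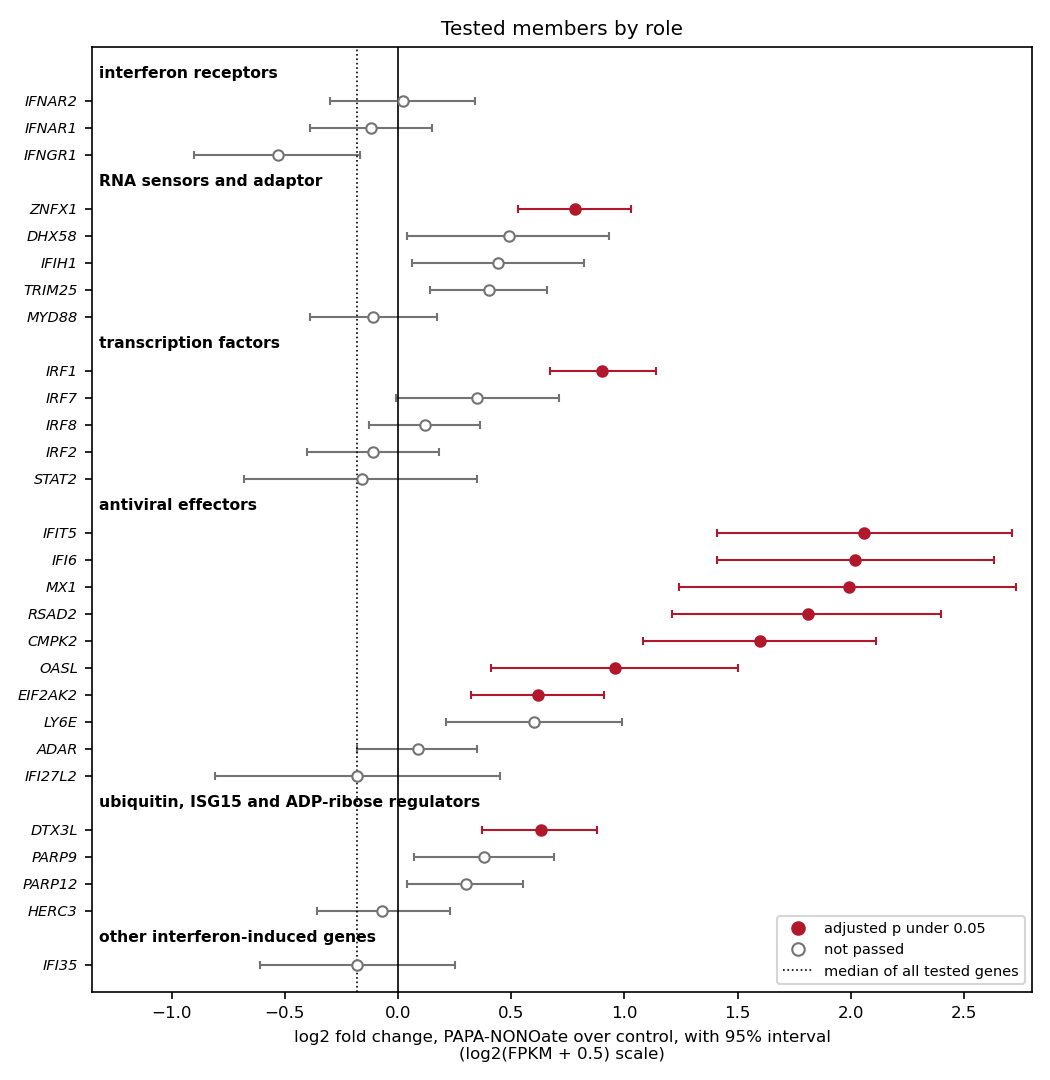
Log2 fold change of each tested member (PAPA-NONOate over control, horizontal axis, log2(FPKM + 0.5) scale) with its 95% interval, grouped by role. Filled red points passed an adjusted p of 0.05, open grey points did not, and the dotted line is the median of all tested genes. Of the 10 antiviral effectors 7 are filled, and all 3 receptors are open.

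Of 7 ligand names of the interferon pathway 3 were found, and none of the 3 reached the filter. IFNW1, by its name a type I interferon, was the only ligand of 3 found in the table whose FPKM reached 1 in any library. It stood at 1.93, 0.326, 2.17, 0.638 and 0.831 FPKM in PAPA-NONOate replicates 2, 3, 4, 5 and 8, against 0, 0.468, 0.382, 0.568 and 0 FPKM in the same-numbered controls. The groups overlapped, IFNW1 did not reach the filter, and without a filter it did not pass (log2 fold change 1.03, SE 0.36, adjusted p = 0.140). IFNG, encoding interferon gamma, was listed at 0 in 4 treated libraries and at 0.0427 FPKM in the other, and lay between 0.0294 and 0.264 FPKM in controls. IFNL3A, a type III interferon by its name, was listed at 0 in every library. IFNA3 and IFNB were not matched by name and were not analysed here, and a 0 in a table of this kind can be a failed estimate. IFNW1 and IFNL3A were named after their values were seen.

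The receptor genes were expressed in every library, and none was called. IFNAR1 stood at 25.2 ± 3.45 FPKM with PAPA-NONOate and 27.2 ± 2.60 FPKM in controls (SD, n = 5 each), a log2 change of -0.12 with a 95% interval of -0.39 to 0.15. IFNAR2 was at 73.1 ± 9.86 FPKM with PAPA-NONOate and 72.5 ± 13.1 FPKM in controls, with a log2 fold change of 0.02 (interval -0.30 to 0.34, adjusted p = 0.953 in limma). The sign of either turns in some alternatives, so neither has a settled direction. IFNGR1, which binds interferon gamma, was at 6.94, 10.9, 7.74, 10.5 and 8.24 FPKM with PAPA-NONOate, against 16.7, 12.9, 11.7, 14.4 and 9.67 FPKM in controls. Its log2 fold change was -0.53 (SE 0.17, adjusted p = 0.0651), and it passed without PAPA-NONOate replicate 5 (adjusted p = 0.0398) and without control replicate 8 (adjusted p = 0.0455). In the RefSeq gene order of another assembly (GRCg7b) the genes IFNAR2, IL10RB, IFNAR1 and IFNGR2 follow each other with no other coding gene between them. IL10RB, the shared subunit of receptors for interleukin 10 and type III interferon, and IFNGR2 had log2 fold changes of 0.17 and -0.01, and neither passed.

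Among the sensors and their adaptor, ZNFX1 rose. ZNFX1, a helicase that senses double-stranded RNA at mitochondria in mammals, was at 31.0, 23.9, 24.5, 23.8 and 27.6 FPKM with PAPA-NONOate, against 15.1, 14.9, 14.1, 13.9 and 17.0 FPKM in controls. Every treated library stood above every control, with a log2 change of 0.78 (SE 0.12, adjusted p = 0.00185). TRIM25, a ubiquitin ligase that acts on RIG-I in mammals, was at 17.4 to 22.2 FPKM with PAPA-NONOate and 12.5 to 15.8 FPKM in controls. These groups did not overlap either, but its log2 fold change of 0.40 (SE 0.12) had an adjusted p of 0.0525 and passed after median-ratio scaling (adjusted p = 0.00700), after quantile normalization and with library weights.

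The cytosolic RNA sensors IFIH1 and DHX58 did not pass, and the toll-like receptors TLR3 and TLR7 did not reach the filter. IFIH1, which senses long double-stranded RNA, was at 6.56, 3.83, 5.20, 4.82 and 4.41 FPKM with PAPA-NONOate, against 3.09, 2.55, 4.14, 3.42 and 4.42 FPKM in controls. Its log2 fold change was 0.44 (SE 0.18, adjusted p = 0.125), and that of DHX58 (LGP2), a helicase that modulates IFIH1, was 0.49 (SE 0.21, adjusted p = 0.145). DHX58 passed after median-ratio scaling (adjusted p = 0.0249) and after quantile normalization (adjusted p = 0.0177), and IFIH1 after quantile normalization (adjusted p = 0.0440). The endosomal receptor TLR3, which binds double-stranded RNA, was at 2.02, 0.782, 1.37, 0.943 and 1.06 FPKM with PAPA-NONOate and at 0.733 to 0.871 FPKM in controls, where every library was under 1 FPKM. TLR7, an endosomal receptor for single-stranded RNA, was at 0.641, 0.336, 0.344, 0.242 and 0.105 FPKM with PAPA-NONOate, against 1.28, 0.607, 0.594, 0.589 and 1.15 FPKM in controls. Treated replicate 2 was the highest of its group for both receptors, and the groups overlapped for both. Without a filter TLR3 had a log2 change of 0.37 (adjusted p = 0.294) and TLR7 of -0.68 (adjusted p = 0.0961). MYD88, the adaptor of TLR7, had a log2 change of -0.11 (adjusted p = 0.607), with 15.6 ± 2.63 FPKM with PAPA-NONOate and 16.8 ± 1.57 FPKM in controls (SD, n = 5 each).

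Of the transcription factors IRF1 rose, and it had the smallest adjusted p of all members. IRF1, an activator of interferon genes and of their targets, was at 65.6, 59.6, 68.9, 62.0 and 66.1 FPKM with PAPA-NONOate, against 34.9, 28.3, 34.9, 35.5 and 38.0 FPKM in controls. The lowest treated library stood well above the highest control, and neither group had a library apart from the rest. The log2 fold change was 0.90 (SE 0.11, 95% interval 0.67 to 1.14, adjusted p = 0.000617). IRF2, which binds the same DNA element and opposes IRF1, was at 26.0 ± 3.02 FPKM with PAPA-NONOate and 28.2 ± 4.43 FPKM in controls, with a log2 change of -0.11 (adjusted p = 0.626) whose sign turned after scaling.

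IRF7, IRF8 and STAT2 did not pass. IRF7 was at 20.3, 14.1, 19.5, 16.2 and 11.7 FPKM with PAPA-NONOate, against 11.2, 10.6, 14.7, 11.6 and 15.0 FPKM in controls. The groups overlapped, and the log2 fold change was 0.35 (SE 0.17, adjusted p = 0.193). IRF8, a factor of myeloid cells, was at 41.1 ± 3.49 FPKM with PAPA-NONOate and 38.0 ± 4.05 FPKM in controls, with a log2 change of 0.12 (adjusted p = 0.537, and 0.0302 after median-ratio scaling). STAT2, a factor that type I interferon activates in mammals, was at 3.04 ± 1.21 FPKM with PAPA-NONOate and 3.35 ± 0.781 FPKM in controls (SD, n = 5 each; log2 fold change -0.16, adjusted p = 0.684).

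The largest rises were those of antiviral effector genes, of which 7 of 10 tested rose and 0 fell, against 1.93% and 7.41% of all genes. At an unadjusted p under 0.05, 8 were higher and 0 lower in limma and by the exact permutation test. Of all 11357 tested genes 3194 and 2982 passed that threshold in these tests, both directions together. IFIT5 (ENSGALG00000045085), of a family that binds viral RNA, was at 269, 101, 129.9, 127 and 89.9 FPKM in PAPA-NONOate replicates 2, 3, 4, 5 and 8, against 30.0, 26.4, 22.2, 29.5 and 58.4 FPKM in the controls of those numbers. The lowest treated library lay above the highest control, which was replicate 8. The ratio of the means was 4.31, and the log2 fold change was 2.06 (SE 0.30, 95% interval 1.41 to 2.71, adjusted p = 0.00169).

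IFI6 (ENSGALG00000013575) encodes a small membrane protein that restricts viruses in human cells. It was at 14.6, 6.44, 9.37, 5.85 and 10.5 FPKM with PAPA-NONOate, against 1.69, 1.26, 1.35, 1.66 and 3.80 FPKM in controls, without overlap. Its log2 fold change was 2.02 (SE 0.28, adjusted p = 0.00130). MX1 (ENSGALG00000016142), an antiviral GTPase in mammals, was at 11.6, 3.83, 5.78, 4.91 and 2.98 FPKM with PAPA-NONOate, against 0.754, 0.748, 0.581, 0.757 and 2.48 FPKM in controls. Control replicate 8 was again highest, close below the lowest treated library. The log2 fold change of MX1 was 1.99 (SE 0.35, adjusted p = 0.00424). Since MX1 met the filter mainly through the treated libraries, and its controls lie near the pseudocount of 0.5 FPKM, the size depends on the pseudocount, at 2.38 with 0.1 and 1.67 with 1.

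RSAD2 and CMPK2 are neighbours in the RefSeq order (GRCg7b), with no coding gene between them, and both rose. RSAD2 (viperin) makes a nucleotide that stops viral RNA synthesis in mammals, and CMPK2 is a mitochondrial nucleotide kinase. RSAD2 was at 21.9, 6.91, 12.2, 15.9 and 7.72 FPKM with PAPA-NONOate, against 3.33, 2.29, 2.50, 3.87 and 3.35 FPKM in controls. CMPK2 was at 54.4, 23.4, 34.8, 35.3 and 28.4 FPKM with PAPA-NONOate, against 10.4, 8.97, 8.26, 10.6 and 18.4 FPKM in controls. For both genes the treated libraries ranked in the same order, with replicate 2 first, then 5, 4, 8 and 3. The log2 fold change was 1.81 for RSAD2 (SE 0.28, adjusted p = 0.00213) and 1.60 for CMPK2 (SE 0.24, adjusted p = 0.00194).

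OASL and EIF2AK2 rose less. OASL, related to the oligoadenylate synthetases, was at 99.5, 109.9, 133, 93.3 and 45.9 FPKM with PAPA-NONOate, against 43.0, 43.7, 46.3, 37.0 and 68.4 FPKM in controls. Treated replicate 8 fell within the controls and control replicate 8 lay above it, so the groups overlapped. The log2 fold change was 0.96 (SE 0.25, adjusted p = 0.0330). The call was lost when PAPA-NONOate replicate 2, 3 or 4 was left out, or control replicate 2, 3, 4 or 5, with an adjusted p of up to 0.0817, and when no filter was used. EIF2AK2 (PKR), a kinase that halts translation when it binds double-stranded RNA, was at 15.2, 10.4, 10.9, 10.2 and 10.3 FPKM with PAPA-NONOate, against 7.48, 6.70, 6.66, 6.87 and 8.35 FPKM in controls. The groups stood apart, with a log2 change of 0.62 (SE 0.14, adjusted p = 0.0149).

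LY6E, ADAR and IFI27L2 did not pass. LY6E, a membrane-anchored protein that affects virus entry in mammals, was at 125, 92.2, 112, 134 and 103 FPKM with PAPA-NONOate, against 72.6, 69.9, 57.9, 64.9 and 116 FPKM in controls. Of the controls only replicate 8 lay within the treated range. The log2 fold change was 0.60 (SE 0.18, adjusted p = 0.0540), and it passed without control replicate 8 (adjusted p = 0.0101), with either median-ratio scaling or quantile normalization, and with library weights. ADAR, which edits adenosine in double-stranded RNA, was at 26.4 ± 3.40 FPKM with PAPA-NONOate and 24.8 ± 2.67 FPKM in controls, with a log2 change of 0.09 (adjusted p = 0.684, and 0.0373 after median-ratio scaling). IFI27L2, of the ISG12 family to which IFI6 also belongs, was at 17.4 ± 5.27 FPKM with PAPA-NONOate and 20.3 ± 7.35 FPKM in controls (SD, n = 5 each). Its log2 fold change was -0.18 (SE 0.29, interval -0.81 to 0.45).

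**Figure D2:**
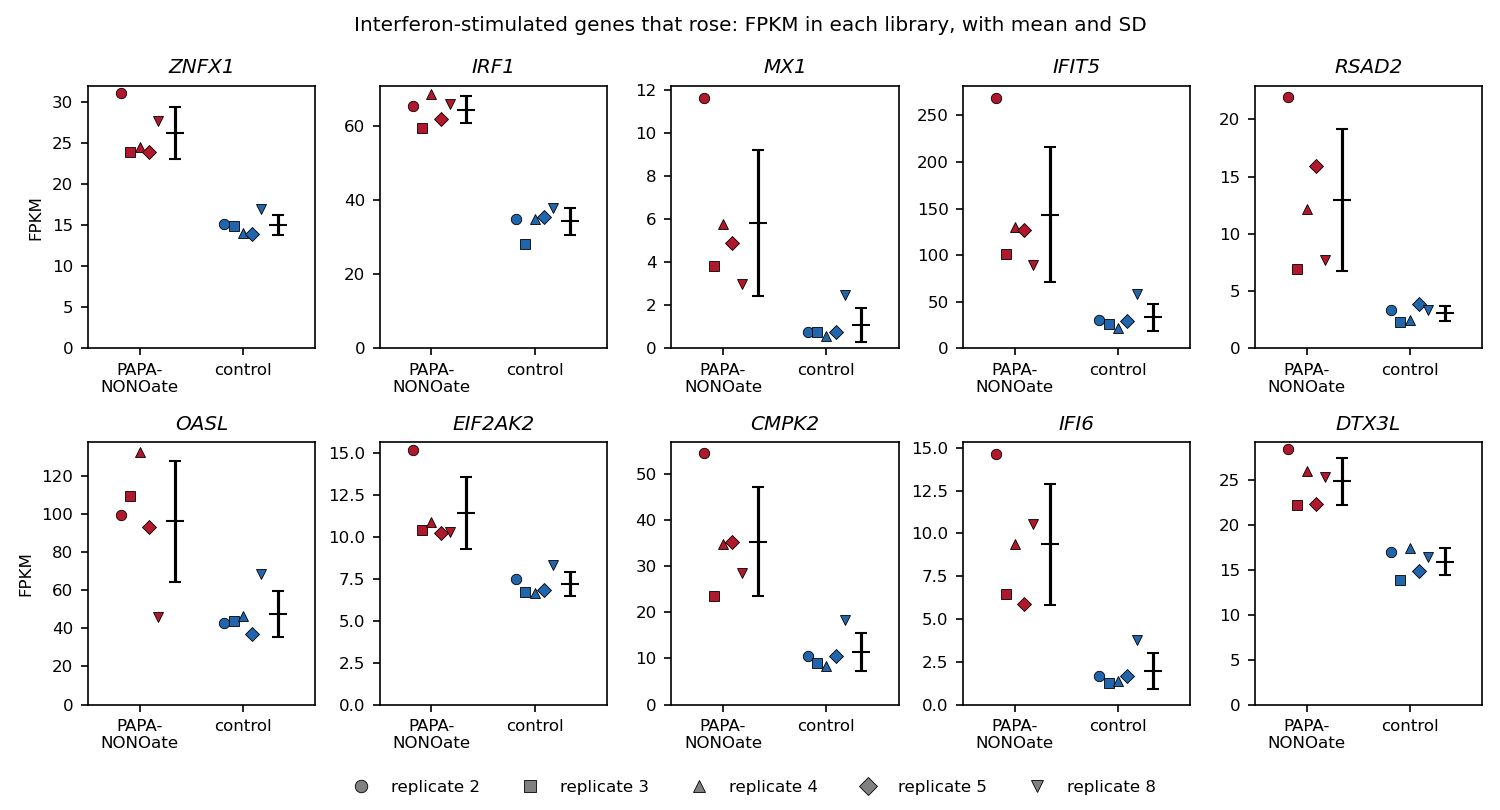
FPKM (vertical axis, from 0) of the 10 members that rose, in each library, with PAPA-NONOate in red and control in blue. Marker shapes give the replicate number, and the black bars give mean and SD (n = 5 per group). Treated replicate 2 is the highest treated library for 8 of the 10 genes and control replicate 8 the highest control for 8 of the 10.

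Of 4 tested genes of ubiquitin and ADP-ribose transfer, DTX3L rose and 3 did not pass. DTX3L is a ubiquitin ligase that works as a complex with PARP9, and the genes are neighbours in the RefSeq order (GRCg7b). DTX3L was at 28.5, 22.2, 26.0, 22.3 and 25.4 FPKM with PAPA-NONOate, against 17.0, 13.9, 17.4, 14.9 and 16.5 FPKM in controls. The groups were apart, and DTX3L rose by a log2 change of 0.63 (SE 0.12, adjusted p = 0.00600). PARP9 was at 6.98, 5.23, 5.37, 6.61 and 6.63 FPKM with PAPA-NONOate, against 5.17, 4.18, 5.63, 4.20 and 3.90 FPKM in controls. Its groups overlapped through control replicate 4, and its log2 fold change of 0.38 did not pass (SE 0.14, adjusted p = 0.106, and 0.0309 after median-ratio scaling). PARP12, an enzyme that adds single ADP-ribose units, had a log2 change of 0.30 (adjusted p = 0.121, and 0.0246 after median-ratio scaling). HERC3, a ubiquitin ligase, was at 12.5 ± 2.09 FPKM with PAPA-NONOate and 13.0 ± 0.902 FPKM in controls, and IFI35, which binds NMI in human cells, at 4.0 ± 0.635 FPKM with PAPA-NONOate and 4.73 ± 1.65 FPKM in controls (SD, n = 5 each). Neither passed, with log2 fold changes of -0.07 and -0.18 whose sign turned under some of the scalings or weights.

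The size of the response differed between libraries. Relative to the mean of the controls, the median of the 10 genes that rose stood at 1.68, 1.07, 1.57, 1.23 and 1.08 on the log2 scale in PAPA-NONOate replicates 2, 3, 4, 5 and 8. In control replicates 2, 3, 4, 5 and 8 it was -0.02, -0.23, -0.17, -0.09 and 0.38. These 10 genes were picked for being higher with PAPA-NONOate, so a gap between the groups follows from the choice. Over all 28 tested members the median was 0.50, 0.17, 0.48, 0.47 and 0.27 in the treated libraries. In the controls it was 0.02, -0.21, -0.01, -0.09 and 0.23, so that the groups overlapped. These values were not scaled. The median of all tested genes, measured the same way, was -0.47, -0.17, -0.13, 0.02 and -0.12 in the treated libraries, lowest in replicate 2. In the controls it was 0.14, -0.06, 0.02, -0.15 and 0.08. The members' median lay farther above that of all genes in every treated library than in any control, which describes a list chosen with earlier results known. Treated replicate 2 was the lowest of its group for 64.4% of all tested genes, but the highest for 8 of the 10 members that rose. Of the 28 tested members it was the highest treated library for 12 and the lowest for 9. Control replicate 8 was the highest control for 33.4% of all tested genes and for 19 of the 28 tested members. Without these libraries, a choice made after the values were seen, all 10 members kept their calls and LY6E was added, with log2 fold changes of 2.02 for IFIT5, 1.98 for MX1, 2.07 for IFI6 and 1.62 for RSAD2.

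**Figure D3:**
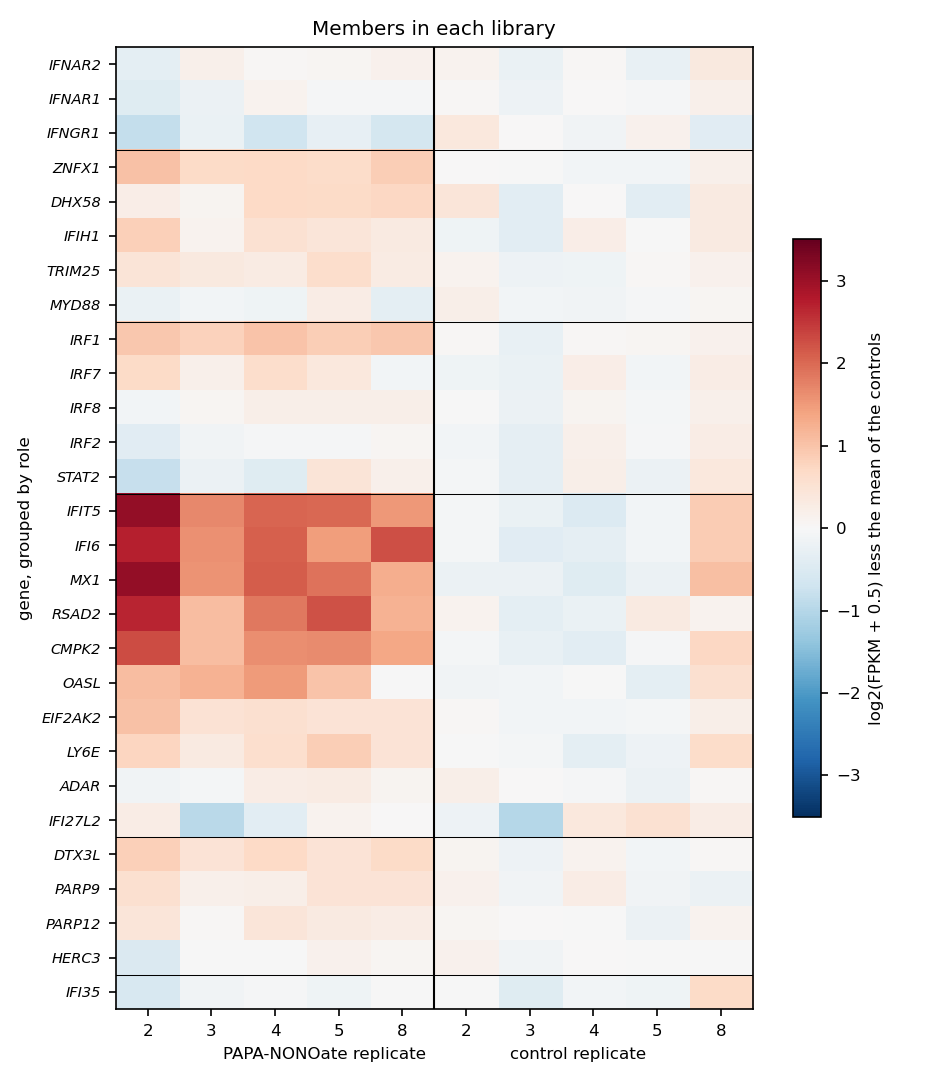
Each tested member (row, grouped by role) in each library (column), coloured by log2(FPKM + 0.5) less the mean of the 5 controls, red higher and blue lower. IFIT5, IFI6, MX1, RSAD2 and CMPK2 are red in all PAPA-NONOate libraries, deepest in replicate 2, and control replicate 8 is the reddest control for each of them but RSAD2.

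Some other genes of the interferon pathway rose as well. From a list of 145 further names 87 were found and 75 tested, of which 6 rose (8.0%, against 1.93% of all genes), 3 fell (4.0%, against 7.41%) and 66 did not pass. Their median log2 fold change was -0.14. After median-ratio scaling 11 were called higher (14.7%, against 7.03% of all genes) and 3 lower (6.44% of all genes were). MOV10, an RNA helicase with antiviral activity in mammals, rose to 3.82 ± 0.593 FPKM with PAPA-NONOate, against 1.57 ± 0.0904 FPKM in controls (SD, n = 5 each), a log2 change of 1.05 (SE 0.15, adjusted p = 0.00143). RNF213, a large ubiquitin ligase, had a log2 change of 0.80 (adjusted p = 0.00488), the exonuclease gene ISG20 of 0.69 (adjusted p = 0.0162), and NMI, which binds STAT factors in human cells, of 0.43 (adjusted p = 0.0260). The call of NMI was lost when PAPA-NONOate replicate 3, 4 or 8 was left out, or control replicate 2, 3 or 4, with an adjusted p of up to 0.0669. The remaining called gene of this kind was C15orf48 (0.93, adjusted p = 0.0266), named after its value was seen, whose call ended on leaving out replicate 3 or 4 of the treated or 4 or 5 of the control libraries (adjusted p up to 0.0661). PRDM1, a repressor that shares DNA sites with interferon regulatory factors, rose to 15.0 ± 1.51 FPKM with PAPA-NONOate, against 8.92 ± 0.774 FPKM in controls (log2 fold change 0.72, adjusted p = 0.00280).

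Inhibitors of interferon signalling did not pass, and few sensors and adaptors did. SOCS1 and SOCS3, feedback inhibitors of the receptors' signal, had log2 fold changes of -0.08 and -0.14 and did not pass (adjusted p = 0.788 and 0.645), and the signs turned after median-ratio scaling. Of 21 tested sensors, adaptors and kinases 0 rose and 2 fell (9.52%, near the 7.41% of all genes), with a median log2 fold change of -0.35. At an unadjusted p under 0.05, 0 were higher and 11 lower in limma, and 1 higher and 10 lower by the exact permutation test. In limma 3194 of all 11357 tested genes passed that threshold, and in the permutation test 2982, both directions together. The median log2 fold change of all tested genes also lay below 0, at -0.18. TLR15, a toll-like receptor of birds and reptiles, was at 2.46, 2.47, 3.78, 3.78 and 2.53 FPKM with PAPA-NONOate, against 4.06, 6.67, 5.39, 5.57 and 10.3 FPKM in controls (log2 fold change -0.94, SE 0.22, adjusted p = 0.0207). Its groups did not overlap, and the call was lost without PAPA-NONOate replicate 3 (adjusted p = 0.0509), without the filter or after quantile normalization. MAVS, the mitochondrial adaptor of IFIH1, was at 3.59, 5.47, 5.51, 7.31 and 5.21 FPKM with PAPA-NONOate, against 8.42, 7.44, 7.60, 7.68 and 8.96 FPKM in controls. Its log2 fold change of -0.55 (SE 0.16) lay at the threshold (adjusted p = 0.0486), and leaving out any library other than PAPA-NONOate replicate 5 ended the call (adjusted p up to 0.107). IRF5, a factor of toll-like receptor signalling in mammals, fell to 0.682 ± 0.359 FPKM with PAPA-NONOate, against 1.96 ± 0.302 FPKM in controls, a log2 change of -1.10 (SE 0.23, adjusted p = 0.0124). IRF5 reached 1 FPKM in 5 controls but in only 1 treated library, so that it met the filter mainly through the controls. TMEM173 (STING), an adaptor for cytosolic DNA, did not pass (log2 fold change -0.18, adjusted p = 0.588).

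**Figure D4:**
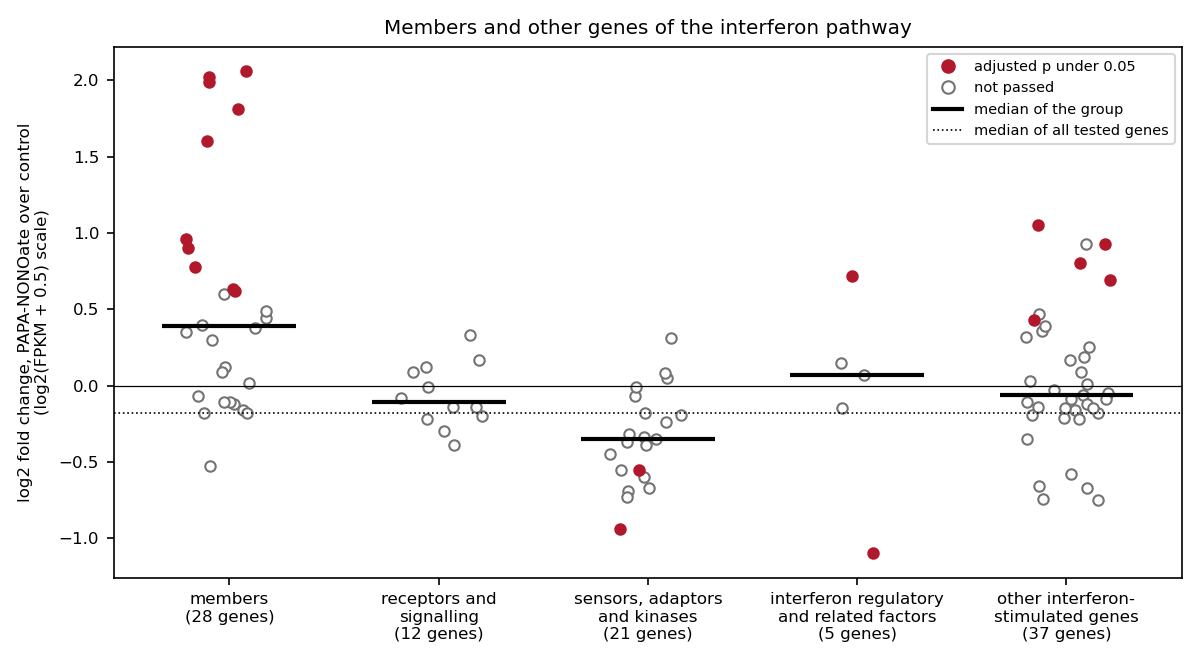
Log2 fold change (PAPA-NONOate over control, vertical axis) of the 28 tested members and of 75 other tested genes of the interferon pathway, by role. Each point is a gene, red where the adjusted p was under 0.05, and the bars are medians. The members have the highest median (0.39) and the sensors, adaptors and kinases the lowest (-0.35).

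Genes of 2 neighbouring immune pathways were counted in the same way. Of 22 tested genes of the major histocompatibility complex and antigen presentation 2 rose (9.09%, against 1.93% of all genes) and 3 fell (13.6%, against 7.41%), with a median log2 fold change of -0.16. With median-ratio scaling 6 were called higher (27.3%, against 7.03% of all genes) and 3 lower (6.44% of all genes were). The class II regulator RFXANK fell (log2 fold change -0.73, adjusted p = 0.00691), as did CD1B (-1.20, adjusted p = 0.0283), which presents lipid antigens, and BLB2 (-0.96, adjusted p = 0.0318), a class II chain. The genes that rose were ERAP1 (0.42, adjusted p = 0.0298), a peptidase that trims antigens, and BRD2 (0.65, adjusted p = 0.0285), a chromatin reader encoded in the complex. BLB2, ERAP1 and BRD2 were named after their values were seen, and each lost its call on leaving out single libraries, namely PAPA-NONOate replicate 3 or 8 and control replicate 2, 5 or 8 for BLB2 (adjusted p up to 0.0788), PAPA-NONOate replicate 3 or 4 and control replicate 3, 4 or 8 for ERAP1 (up to 0.0753), and any other than PAPA-NONOate replicates 2 and 5 and control replicate 4 for BRD2 (up to 0.0690). CD1B lost its call when PAPA-NONOate replicate 3 or 8 was left out, or control replicate 2, 3, 5 or 8, with an adjusted p of up to 0.0667. Of 31 tested cytokine receptor, JAK, STAT and SOCS genes 0 rose (1.93% of all genes did) and 1 fell (3.23%, against 7.41%), with a median of -0.20. At an unadjusted p under 0.05 limma and the exact permutation test each had 1 higher and 4 lower. Among all 11357 tested genes 3194 and 2982 passed that threshold in these tests, both directions together. The gene that fell was GHR, the growth hormone receptor, with a log2 change of -0.56 (adjusted p = 0.0291), a call lost when PAPA-NONOate replicate 3 or 8 was left out, or control replicate 2, 3, 4 or 5, with an adjusted p of up to 0.0747.

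Summed markers listed for macrophages, T lymphocytes and B lymphocytes were lower in choroids with PAPA-NONOate. The sum of the retinal pigment epithelium list, given above, was lower as well. The 18 macrophage and myeloid markers found summed to 274 to 839 FPKM with PAPA-NONOate and 876 to 1198 FPKM in controls (exact two-sided permutation p = 0.00794, the smallest that 5 against 5 libraries allow, and 0.0437 adjusted over 11 marker lists). The sums use FPKM without further scaling. These lists were chosen with earlier results of these data known, so the p-values of their sums are a description. Of 15 tested 0 rose and 7 fell (46.7%, against 7.41% of all genes). After median-ratio scaling 1 was higher (6.67%, against 7.03% of all genes) and 7 lower (6.44% of all genes were). At an unadjusted p under 0.05, 0 were higher and 10 lower in limma, and 0 and 9 by the exact permutation test. Of all 11357 tested genes 3194 and 2982 passed that threshold, both directions together. Among the markers that fell were SPI1 (log2 fold change -0.76, adjusted p = 0.00597), a master regulator of myeloid cells, and PTPRC (-1.05, adjusted p = 0.00280), a surface protein of all leukocytes. CSF1R, the receptor that macrophages need, did not pass (-0.56, adjusted p = 0.252). Treated replicate 2, the highest treated library for 8 of the 10 members that rose, had the lowest macrophage and myeloid sum. Its endothelial (524 FPKM), fibroblast (351 FPKM) and smooth muscle (87.2 FPKM) sums were also the lowest of all libraries. The other marker lists had their lowest sum in other libraries. Control replicate 8, the highest control for 8 of the same 10 members, had the highest macrophage and myeloid sum. Treated replicate 2 and control replicate 8 also had the lowest and the highest summed FPKM over all genes. T lymphocyte markers summed to 9.40 to 17.9 FPKM with PAPA-NONOate and 14.3 to 29.3 FPKM in controls (exact permutation p = 0.0159), with 5 of 10 under 1 FPKM in every library, and CD3E fell (-1.34, adjusted p = 0.0117). B lymphocyte markers summed to 4.31 to 14.9 FPKM with PAPA-NONOate and 11.2 to 23.6 FPKM in controls (exact permutation p = 0.0159), and their defining gene CD79B was at 0 to 0.172 FPKM with PAPA-NONOate and 0.0433 to 0.180 FPKM in controls. Both had an adjusted p of 0.0437 over the 11 lists. None of the macrophage, T lymphocyte and B lymphocyte lists had a marker at 0 in every library. Of the 8 B lymphocyte markers found, 4 were under 1 FPKM in every library, and of 3 tested 0 rose and 1 fell (7.41% of all genes fell). With CD79B this low, the B lymphocyte sum rests on other genes of the list. Whether B lymphocytes carried their transcripts was not tested. Dendritic cell markers ran the other way, with sums of 142 to 281 FPKM with PAPA-NONOate and 110 to 174 FPKM in controls, but missed the threshold (exact permutation p = 0.0317, adjusted 0.0581). The fibroblast markers summed to 351 to 1163 FPKM with PAPA-NONOate and 1033 to 1975 FPKM in controls (exact permutation p = 0.0238, adjusted 0.0524). Of 8 tested 1 rose and 3 fell (12.5% and 37.5%, against 1.93% and 7.41% of all genes). Their median log2 fold change was -1.08, and that of the macrophage and myeloid markers was -0.94. At an unadjusted p under 0.05, 1 was higher and 7 lower in limma, and 1 and 6 by the exact permutation test. The shares over all genes are given above. The part of these cells in the values of TLR7, IRF8, IRF5 or the effectors was not tested, and in whole tissue fewer cells of a type and less RNA per cell cannot be told apart.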

How the data were processed

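RNA-seq of 10 choroid samples was deposited by the authors as 1 table of FPKM values per gene and library, made with Cufflinks and SAMtools on GRCg6a, per the submitters' processing notes. Their versions and settings are not given in the sources used. FPKM is scaled to each library's mapped fragments and to transcript length, so a shift in a few abundant genes moves all others. The file marks failed estimates with 999999999, which were treated as missing (14 values, in no member). No other column of sample values was left unused (0).

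The members, the lists and the marker lists were chosen with earlier results of these data known. Genes with at least 1 FPKM in at least 5 libraries and no missing value (11357) were tested on log2(FPKM + 0.5) with limma 3.58.1 in R 4.3.3, with a mean-variance trend and Benjamini-Hochberg adjustment over all genes tested, at a threshold of 0.05. Fold changes on this scale understate the change of low genes. The fit had 8 residual degrees of freedom, and it was tested on simulated data. Summed markers were compared with an exact two-sided permutation test with 252 arrangements. Genes named were all members, up to 4 called genes with the smallest adjusted p per role of the other pathway genes, up to 2 per comparison list, and a few signalling and marker genes fixed by name, with exceptions marked. The result of 1 gene fixed by name is not reported here. Alternatives changed the pseudocount, the filter, the scaling, the model and the libraries used, and an exact permutation test was run per gene. A planned count of promoter motifs was not run, because no promoter sequence was used here. Read depth is unknown, which leaves the counting error of low values unmeasured. Gene neighbours came from RefSeq (GRCg7b), where all 30 members found had 1 place, and no coordinates were used.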

Additional observations from a re-analysis of the deposited data

Results flagged for a closer look

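Among 60 groups of 5 libraries examined (30 members in each group), 8 held a value far from the other 4 by Dixon's test at 95%. Its rate of about 1 in 20 holds for a single group. The members were measured in the same libraries, so that rate cannot be set against this count. All 8 lay in PAPA-NONOate replicate 2 (3 values) or control replicate 8 (5 values). In PAPA-NONOate replicate 2, IFIT5 stood at 269 FPKM against 89.9 to 129.9 FPKM in the other treated libraries, and EIF2AK2 at 15.2 FPKM against 10.2 to 10.9 FPKM. IFI35 was lowest there, at 2.90 FPKM, against 4.09 to 4.49 FPKM. On the log2 scale, less the median gene of each library, IFI35 was at -0.101 there and at -0.161 in PAPA-NONOate replicate 5. In control replicate 8, MX1 stood at 2.48 FPKM against 0.581 to 0.757 FPKM in the other controls, and IFIT5 at 58.4 FPKM against 22.2 to 30.0 FPKM. CMPK2 was at 18.4 FPKM there against 8.26 to 10.6 FPKM, IFI6 at 3.80 FPKM against 1.26 to 1.69 FPKM, and LY6E at 116 FPKM against 57.9 to 72.6 FPKM. The summed macrophage markers and the summed FPKM of all genes were both lowest in PAPA-NONOate replicate 2 and highest in control replicate 8. Endothelial, fibroblast and smooth muscle sums were also lowest in PAPA-NONOate replicate 2. The part of these differences in the flagged values was not tested.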

How the results depend on the processing

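Of the 10 members called higher, 9 were called in all 22 limma settings in which they were tested, the exception being OASL, and MX1 was not tested with the filter at 5 FPKM. The number of members called higher was 17 after median-ratio scaling, 16 after quantile normalization, 16 with the replicate block and median-ratio scaling, and 9 to 11 when each library was left out in turn. Of all 11357 genes 219 were called higher without such changes. In these 3 settings 798, 733 and 939 of them were, and 158 to 254 when each library was left out. Members called lower numbered 0 to 1 on leaving out libraries (IFNGR1 without PAPA-NONOate replicate 5 or control replicate 8). The members' median log2 fold change was 0.57 after median-ratio scaling, with or without the block, 0.61 after quantile normalization, and 0.34 to 0.43 on leaving out libraries. Other pathway genes called higher numbered 11, 11 and 14 under those 3 settings, and 4 to 6 on leaving out libraries. Those called lower numbered 1 without a filter, 0 with the filter at 5 FPKM, 1 after quantile normalization, 7 with library weights, 1 without both PAPA-NONOate replicate 2 and control replicate 8, and 1 (without PAPA-NONOate replicate 3) to 10 (without PAPA-NONOate replicate 5) on leaving out libraries. Over all genes 842 of 11357 were called lower without such changes. In the same order the settings had 575 of 19269 genes, 449 of 8094, and 680, 1424, 443, 529 and 1580 of 11357. Of all genes, 1061 were called, against 605 with the filter at 5 FPKM, where fewer genes are tested, 1807 with library weights, 1855 with the block and scaling, 678 without both libraries, and 604 (without control replicate 2) to 1813 (without PAPA-NONOate replicate 5) on leaving out libraries. It was 693 when PAPA-NONOate replicate 3 was left out, and 707, 684 and 689 for control replicates 3, 4 and 8. The cause of these differences was not tested where not named. The per-gene exact permutation test called 0 genes, 0 members and 0 other pathway genes in either direction. Its smallest possible p of 0.00794 had an adjusted p of 0.0852 here, a value that depends on how many genes share it. At an unadjusted p under 0.05 the permutation test had 2982 genes and limma 3194.

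Whole libraries of 1 group correlated at 0.93 to 0.978. For a sign of pairing, each gene's deviations from its group mean were correlated between same-numbered libraries. These correlations were 0.00348, 0.288, 0.303, -0.0229 and 0.186 for numbers 2, 3, 4, 5 and 8. The deviations were not scaled, so shifts of whole libraries enter them, and they cannot exclude pairs. The labels do not give pairs, and the numbers were not taken as such. With the replicate block and no scaling 893 genes and 9 members were called in limma, OASL being lost (adjusted p = 0.0574). The block also ended the calls of NMI (adjusted p = 0.0763), MAVS (0.0851), GHR (0.0611) and ERAP1 (0.0902), each of which had a call in limma without it. In these deviations PAPA-NONOate replicates 3, 4 and 8, which are 3 of 5, correlated best with the control of their own number. With median-ratio scaling 1855 genes were called with the block, against 1529 without it. These are hints from the data and not from the design.

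Log2 fold changes of genes that had not passed changed sign as follows. After median-ratio scaling, with and without the block, they were 0.07 for IFNAR1, MYD88 and IRF2, 0.11 for HERC3, 0.10 for SOCS1, 0.05 for SOCS3 and 0.18 for IFNGR2. After quantile normalization they were 0.01 for IFNAR1, 0.07 for MYD88 and SOCS1, 0.02 for IRF2, 0.10 for STAT2 and TMEM173, 0.12 for HERC3, and 0.09 for IFI35 and IFNGR2. With library weights they were 0.02 for HERC3, 0.01 for IFI35 and 0.07 for IFNGR2. When libraries were left out, singly or both together, the values ran over -0.05 to 0.20 for IFNAR2, -0.19 to 0.02 for IRF2, -0.32 to 0.09 for STAT2, -0.43 to 0.01 for IFI27L2, -0.12 to 0.04 for HERC3, -0.29 to 0.09 for IFI35, -0.22 to 0.05 for SOCS1, -0.21 to 0.11 for SOCS3, -0.06 to 0.09 for IFNGR2 and -0.10 to 0.16 for PECAM1. A choice among repeated rows gave no value, since no member name had several rows.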

Other observations

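The endothelial, smooth muscle, red cell and melanocyte marker lists did not pass the threshold between groups. Endothelial markers summed to 524 to 880 FPKM with PAPA-NONOate and 644 to 915 FPKM in controls (exact permutation p = 0.333). Smooth muscle and pericyte markers summed to 87.2 to 217 FPKM with PAPA-NONOate and 159 to 247 FPKM in controls (exact permutation p = 0.0952). Red cell and thrombocyte markers summed to 1133 to 2120 FPKM with PAPA-NONOate and 483 to 2746 FPKM in controls (exact permutation p = 0.421). Melanocyte markers, which mark the pigmented cells of the choroid, summed to 10.7 to 185 FPKM with PAPA-NONOate and 19.1 to 459 FPKM in controls (exact permutation p = 0.556), and were highest in replicate 2 of both groups.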
